A study of Homo sapiens with 6 samples.

Results

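The genes described here encode the machinery that copies DNA and makes its building blocks: 47 genes for origin licensing, the replicative helicase, the polymerases and their sliding clamp, deoxynucleotide synthesis, Okazaki fragment joining and chromatin assembly. They were found by their gene symbols, and all 47 are among the 16832 gene symbols listed for each library. RNA sequencing read their transcripts in U251, a long-established cell line from human glioma that the labels give as wild type (WT). In 3 libraries the cells had been kept with SLCDS, a mixture of small molecules named only by this abbreviation, for 18 days. In 3 control libraries U251 cells had received PBS without SLCDS, and the labels give no culture time for them, so treatment and time in culture cannot be told apart. The labels do not say that libraries of a group came from separate cultures, so p-values measure only the spread between these libraries, which may be technical.

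Replication origins are licensed in G1 phase, when the origin recognition complex, CDC6 and CDT1 load the ring-shaped MCM2-7 helicase onto DNA, and geminin (GMNN) binds CDT1 to prevent a further round of loading. In S phase, CDC45 and the GINS complex join the MCM ring to form the active helicase. Primase and polymerase alpha then start each strand, the RFC loader places the PCNA clamp, and polymerases delta and epsilon extend the DNA. Many of these genes are known targets of E2F transcription factors and are transcribed mainly around the start of S phase, so their transcript levels in a culture are commonly read beside those of other proliferation genes.

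The deposited values are FPKM, fragment counts divided by transcript length and by depth, which allow levels to be compared between genes per length. Estimated depth was 16300000 to 17200000 fragments per library, so that 32.5 to 34.3 fragments gave a 2000-nucleotide transcript an FPKM of 1, and 9 of the 47 genes had fewer than 100 estimated fragments in every library. Control replicate 3 stood apart from the other controls: its log2 values correlated with theirs at 0.9765 and 0.9767, whereas the other controls correlated with each other at 0.9969 and the SLCDS libraries among themselves at 0.9966 to 0.997. Control replicate 3 lay above the mean of the other controls for 29 of the 44 replication genes tested and below it for 15. Over all 11506 tested genes it lay above for 5954 (51.7%). The median difference on the log2 scale was 0.05 over the 44 genes and 0.02 over all tested genes, and the median absolute difference was 0.16 and 0.26. The largest gaps among the 44 were those of POLD2 (0.48), RFC2 (0.46), PCNA (0.45) and DUT (0.41) above and PRIM1 (-0.54) below. Results are therefore given with and without this library. Summed markers of astrocytic glioma cells ranged from 2277 to 2361 FPKM in SLCDS and from 2318 to 2757 FPKM in control, mostly from VIM. Within this list GFAP was lower in SLCDS, at 127 to 141 against 312 to 354 FPKM, as was SOX2, at 370 to 388 against 420 to 445. NES was higher, at 250 to 256 FPKM in SLCDS and 201 to 227 FPKM in control, and the ranges of VIM and S100B overlapped. Summed markers of fibroblasts or pericytes ranged from 364 to 371 and from 363 to 395 FPKM, nearly all from COL1A2. Of the minor ones, PDGFRB was higher in SLCDS (1.66 to 1.84 against 0.3 to 0.439 FPKM) and COL1A1 lower (0.462 to 0.663 against 0.881 to 1.16 FPKM). Neuronal markers summed to 51.1 to 52.5 FPKM in SLCDS and 63.4 to 63.9 in control, mostly from TUBB3 and MAP2, while SYN1 (0.796 to 0.998 against 0.459 to 0.613 FPKM) and SNAP25 (5.95 to 6.44 against 4.46 to 5.53 FPKM) were higher in SLCDS without overlap. Endothelial markers, mostly CDH5, summed to 4.93 to 5.87 and 2.09 to 3.0, and immune markers to 0.14 to 1.03 and 0.36 to 0.65. No marker in these lists was at 0 in all 6 libraries, and their part in the results below was not tested.

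The promoters of 7 genes are shown because the transcripts of 5 of them (RRM2, TYMS, TK1, CDC6 and CDT1) rose most with SLCDS, while PRIM2 and RFC2 had the smallest differences between groups among the tested genes that did not pass the test and have an entry in the table. Each sequence runs 5′ to 3′ along the gene's strand from 250 bases before the annotated start to 50 bases after it, from RefSeq on GRCh38.p14. The windows are RRM2 at chr2:10122489-10122788 (plus strand), TYMS at chr18:657403-657702 (plus strand), TK1 at chr17:78187155-78187454 (minus strand), CDC6 at chr17:40287629-40287928 (plus strand), CDT1 at chr16:88803539-88803838 (plus strand), PRIM2 at chr6:57314555-57314854 (plus strand) and RFC2 at chr7:74254350-74254649 (minus strand). Each spans the upstream flank and the first transcribed bases of the gene. Capitals mark matches to the E2F core (searched as TTCCCGC, then as TTGGCGC, as TTCGCGC and as TTGCCGC) and to the CCAAT box (CCAAT), on either strand.
RRM2: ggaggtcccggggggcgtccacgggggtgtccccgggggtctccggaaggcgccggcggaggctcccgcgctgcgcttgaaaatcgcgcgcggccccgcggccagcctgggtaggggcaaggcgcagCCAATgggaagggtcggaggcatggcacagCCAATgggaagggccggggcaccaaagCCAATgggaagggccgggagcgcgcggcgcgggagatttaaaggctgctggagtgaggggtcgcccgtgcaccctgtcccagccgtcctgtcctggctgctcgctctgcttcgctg
TYMS: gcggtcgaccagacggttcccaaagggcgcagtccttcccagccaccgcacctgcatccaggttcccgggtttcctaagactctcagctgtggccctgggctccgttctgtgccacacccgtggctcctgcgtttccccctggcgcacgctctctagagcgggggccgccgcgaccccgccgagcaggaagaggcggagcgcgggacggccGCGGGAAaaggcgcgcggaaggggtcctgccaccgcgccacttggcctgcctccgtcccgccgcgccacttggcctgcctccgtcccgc
TK1: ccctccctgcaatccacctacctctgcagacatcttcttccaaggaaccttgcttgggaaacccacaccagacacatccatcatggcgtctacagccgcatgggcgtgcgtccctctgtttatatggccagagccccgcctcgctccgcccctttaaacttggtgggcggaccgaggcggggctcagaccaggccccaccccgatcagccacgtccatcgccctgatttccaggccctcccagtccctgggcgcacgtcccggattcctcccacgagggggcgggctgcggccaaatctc
CDC6: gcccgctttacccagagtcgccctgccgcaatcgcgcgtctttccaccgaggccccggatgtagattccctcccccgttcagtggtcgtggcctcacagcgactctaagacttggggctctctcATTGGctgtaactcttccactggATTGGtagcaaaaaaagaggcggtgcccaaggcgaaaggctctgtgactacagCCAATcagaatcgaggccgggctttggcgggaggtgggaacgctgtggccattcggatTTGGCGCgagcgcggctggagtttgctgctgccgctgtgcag
CDT1: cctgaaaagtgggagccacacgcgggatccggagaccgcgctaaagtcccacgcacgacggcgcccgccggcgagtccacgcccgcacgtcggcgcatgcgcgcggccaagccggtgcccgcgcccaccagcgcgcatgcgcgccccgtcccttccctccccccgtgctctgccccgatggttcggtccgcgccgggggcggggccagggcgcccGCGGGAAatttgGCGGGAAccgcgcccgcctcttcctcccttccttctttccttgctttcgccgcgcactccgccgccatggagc
PRIM2: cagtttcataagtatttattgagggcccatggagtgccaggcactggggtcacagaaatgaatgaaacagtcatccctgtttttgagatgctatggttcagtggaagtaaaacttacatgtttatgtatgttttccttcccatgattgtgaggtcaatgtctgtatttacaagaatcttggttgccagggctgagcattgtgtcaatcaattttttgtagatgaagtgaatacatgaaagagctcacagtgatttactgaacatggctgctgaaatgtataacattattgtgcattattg
RFC2: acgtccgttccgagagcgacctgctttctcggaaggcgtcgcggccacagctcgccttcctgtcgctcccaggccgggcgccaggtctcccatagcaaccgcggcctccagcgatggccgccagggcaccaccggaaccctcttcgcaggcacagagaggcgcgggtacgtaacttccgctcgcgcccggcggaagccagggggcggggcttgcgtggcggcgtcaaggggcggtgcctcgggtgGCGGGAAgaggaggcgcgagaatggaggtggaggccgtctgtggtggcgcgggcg

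The RRM2 window held 3 CCAAT boxes in the same orientation, ending 119, 89 and 62 bases before the start, and no E2F core. In CDC6, 3 CCAAT boxes ended 122, 99 and 46 bases before the start, and an E2F core began 8 bases after the first transcribed base. CDT1 held a pair of E2F cores ending 29 and 17 bases before the start, and TYMS held 1 ending 33 bases before it. The TK1 window held neither motif, only matches to the GC box GGGCGG bound by SP1. RFC2, whose transcript did not pass the test, held an E2F core across its start, and PRIM2 held none of the 4 motifs searched. RRM2 and TK1 each have another annotated start, with windows at chr2:10122318-10122617 and chr17:78187003-78187302, and each of those holds 1 E2F core. The other RRM2 window also holds 1 CCAAT box and the other TK1 window 2. PRIM2 has another window as well, at chr6:57317380-57317679, with none of the 4 motifs.

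**Figure D1:**
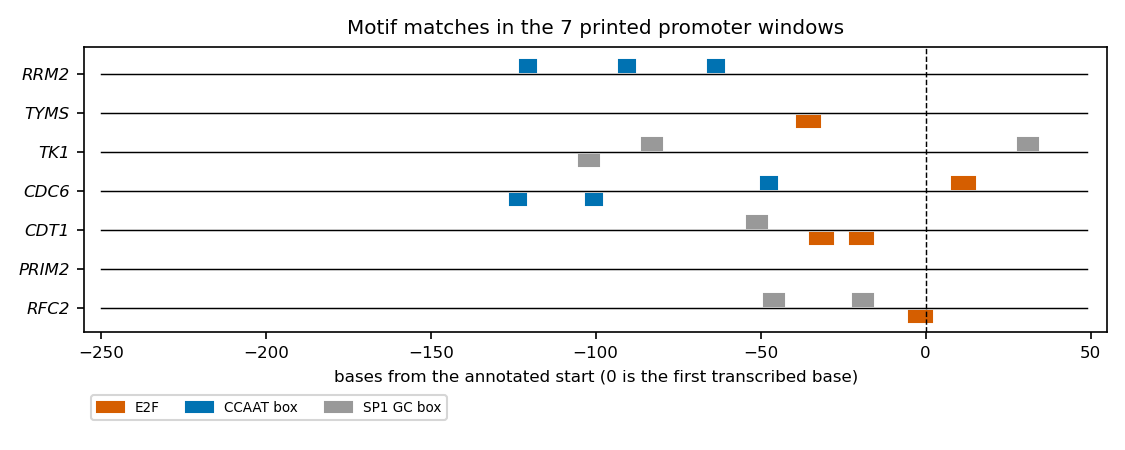
Matches to 3 motifs in the 7 printed promoter windows, placed by distance in bases from the annotated start (x axis, 0 is the first transcribed base). Blocks above each line are on the gene's strand and blocks below it on the other strand: the CCAAT boxes of RRM2 and CDC6 lie upstream of the start, the E2F cores of TYMS and CDT1 lie just before it, and PRIM2 has no block.

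Windows were found for 43 of the 47 genes. Counting the first listed window of each gene, an E2F core was present in 4 of 7 genes that rose with SLCDS (57.1%) and in 22 of 33 tested genes that did not pass the test (66.7%), against 21.3% of 9425 tested genes of the whole table and 13% of all 35116 windows of this length. With every annotated start counted, the shares were 6 of 7 (85.7%), 24 of 33 (72.7%) and 25.6%. CCAAT boxes were present in 2 of 7 (28.6%) and 20 of 33 (60.6%), against 37.3% of tested genes and 34.6% of all windows, and the GC box in 3 of 7 (42.9%) and 24 of 33 (72.7%), against 70.8% and 45%. The cell cycle homology region TTTGAA, another element of cell cycle promoters, was in 0 of 7 and in 1 of 33 (3.03%), against 9.58% of tested genes and 15.2% of all windows. Among 160 matches in these genes' windows, 12 pairs of different motifs and 13 pairs of the same motif shared bases. An E2F core was thus present in windows of genes that rose and of genes that did not pass the test.

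Of the 47 genes, 44 reached an FPKM of 1 in 3 libraries or more and were tested with limma on log2(FPKM + 1). At an adjusted p under 0.05, 8 were higher in SLCDS and none lower, beside a background of 4.28% higher and 1.82% lower among the 11506 genes tested. At an unadjusted p under 0.05, 15 tested genes of the set were higher and none lower. The share of all tested genes at that level was not counted, so these counts, and those for the lists below, lack a background. The 8 were the licensing genes CDC6 and CDT1, the helicase subunits MCM2 and MCM4, the nucleotide synthesis genes RRM2, TYMS and TK1, and the flap nuclease gene FEN1. The median log2 fold change of the 44 was 0.12, with a range of -0.16 to 1.19, against a median of 0.00 over all tested genes. Of the 44, 35 lay above 0 and 9 below, beside 5766 and 5740 of all 11506 tested genes. A difference of less than 0.2 was seen for 26 of the 44, beside 8460 of all 11506. In bulk RNA, more cells in S phase and more of these transcripts per cell cannot be told apart.

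The groups' FPKM ranges were separate for 21 of the 47 genes with SLCDS higher and for MCM6 and ORC4 with SLCDS lower, where 15.5% and 13.6% of all tested genes were so placed. ORC1 and CDC45 entered the test only through their SLCDS libraries; among the other 42 tested genes 18 were higher and 2 lower without overlap. Without control replicate 3 limma called 19 of the 44 higher and 0 lower, beside backgrounds of 16% and 11.8% of all tested genes. The 19 held all 8 genes named above and added MCM3, MCM7, ORC6, CDC45, GINS1, GINS4, PCNA, RFC3, RFC5, POLA2 and CHAF1A. The count over the set and the background both grew when that library was left out, and the 19 include CDC45, which had entered the test through its SLCDS libraries. With each library's trend on transcript length and GC content removed, 14 were higher, beside 10.4% of all tested genes.

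**Figure D2:**
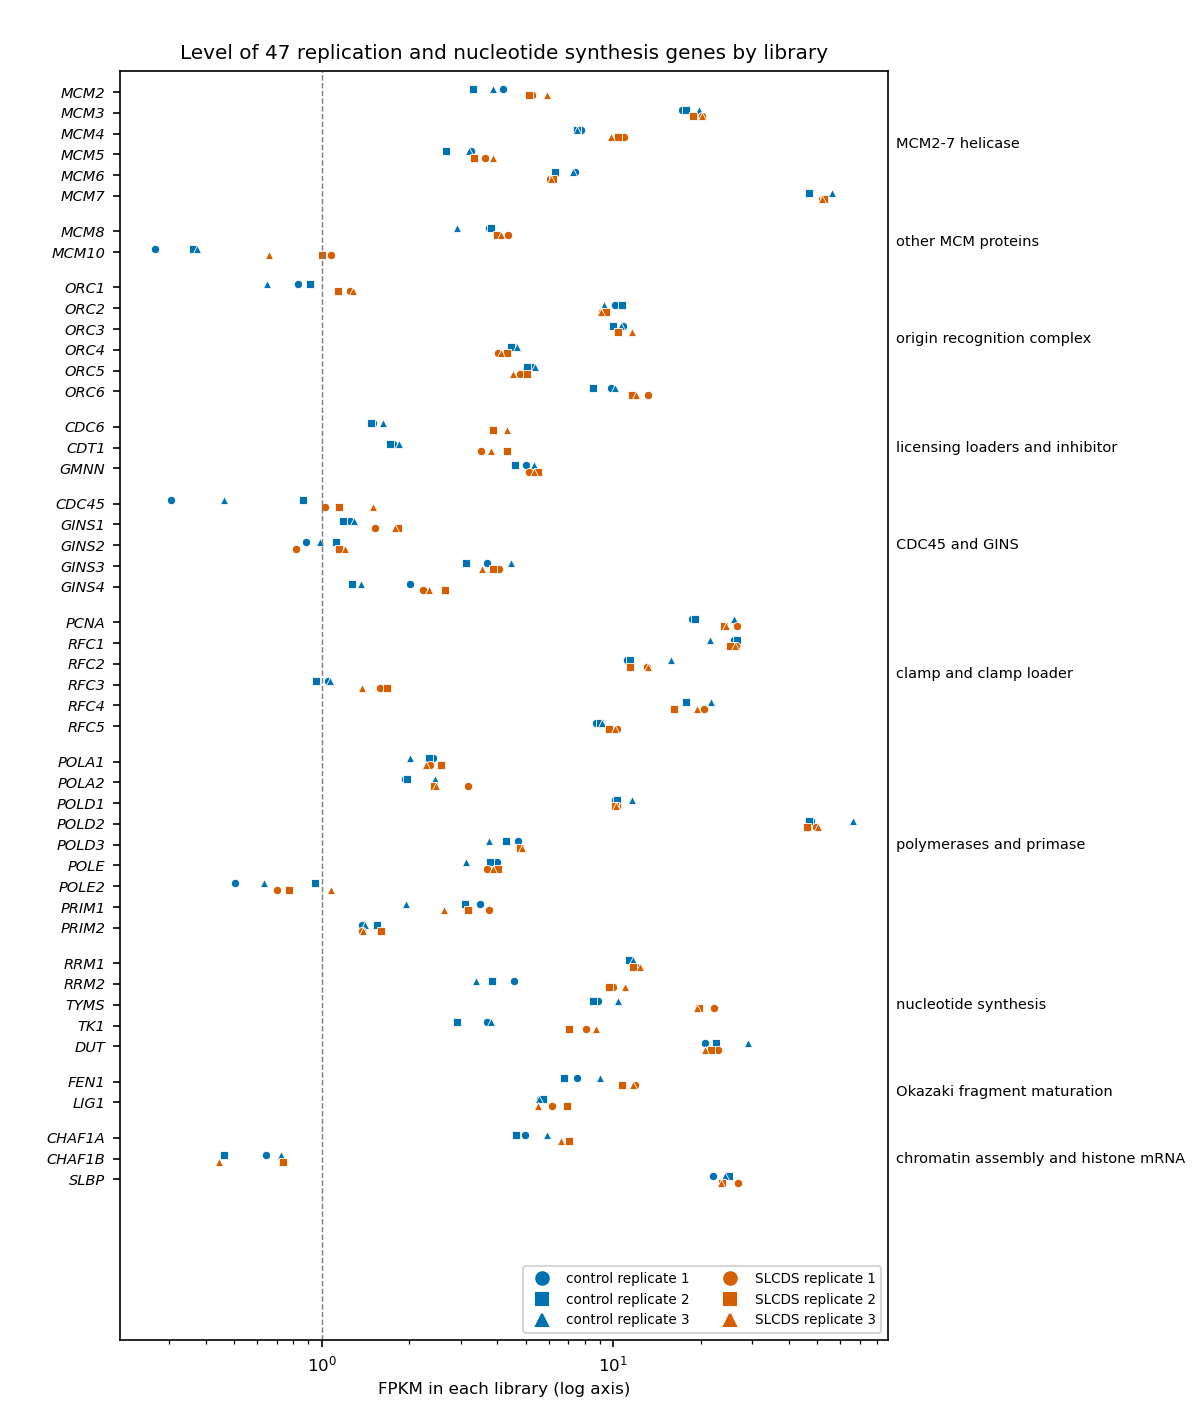
FPKM (x axis, log scale) of the 47 genes in each of the 6 libraries, grouped by role, with the dashed line at an FPKM of 1. The SLCDS points of RRM2, TYMS, TK1, CDC6 and CDT1 lie to the right of all control points, while those of most polymerase and clamp loader genes mix with the control points.

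**Figure D3:**
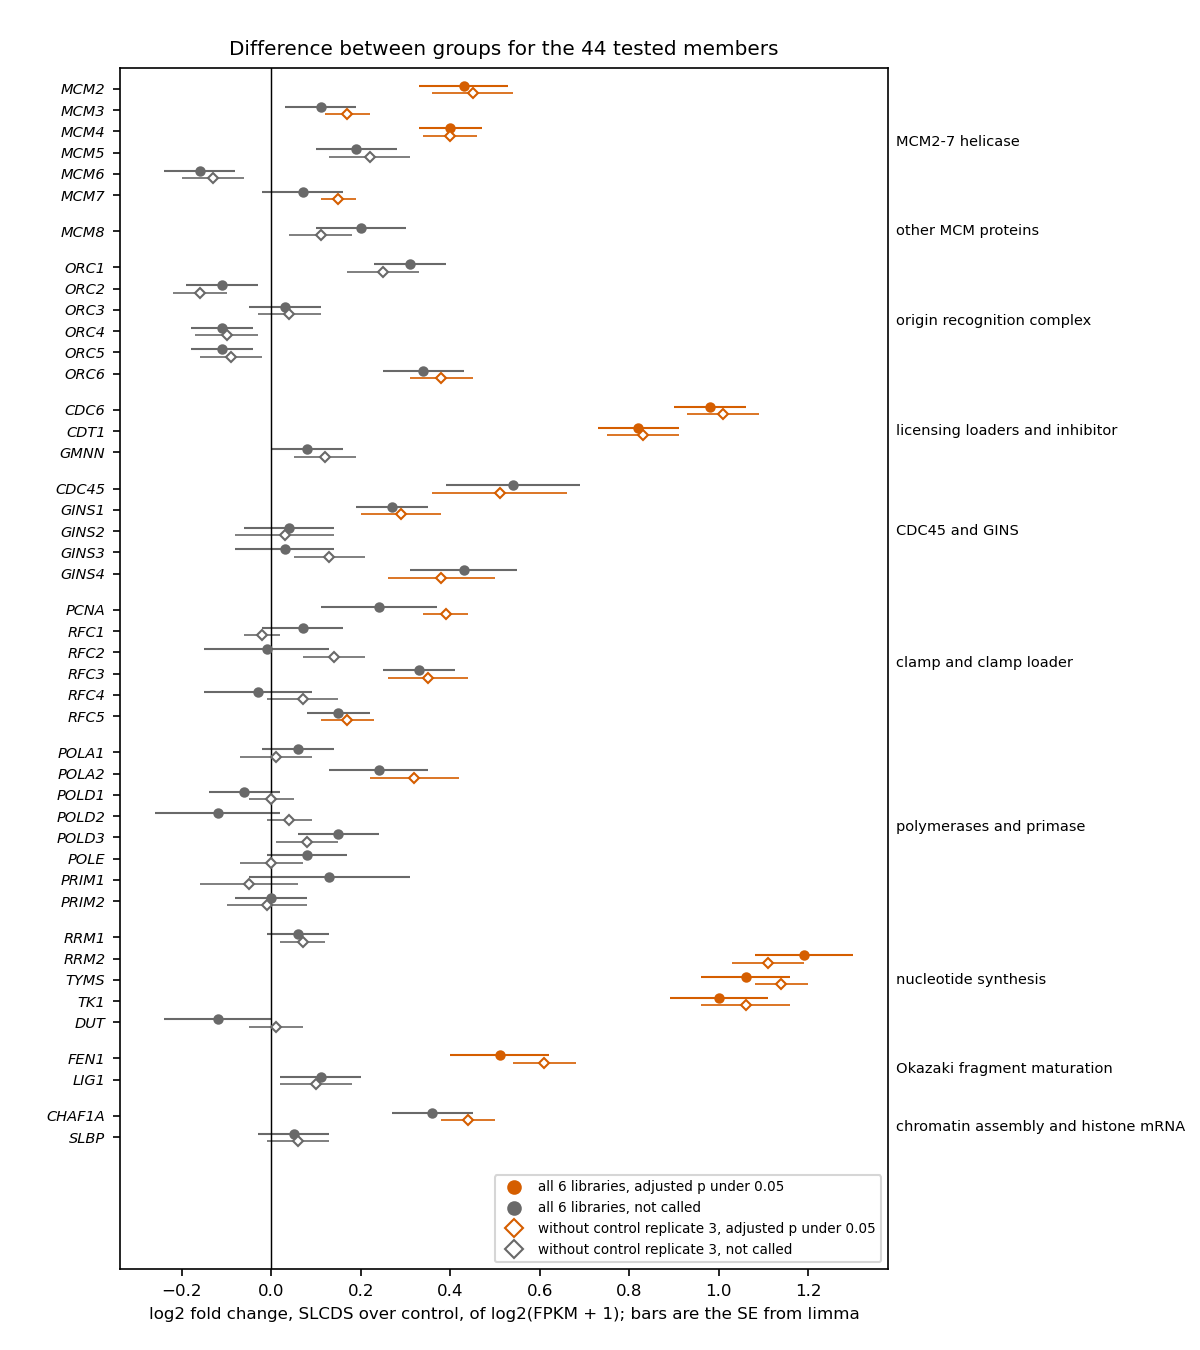
Log2 fold change of SLCDS over control on the log2(FPKM + 1) scale for the 44 tested genes (x axis, bars are the SE from limma), with all 6 libraries (filled circles) and without control replicate 3 (open diamonds). Orange marks an adjusted p under 0.05: 8 genes with all libraries and 19 without control replicate 3, none of them below 0.

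Among the licensing genes both loaders rose, and the inhibitor GMNN did not pass the test. CDC6, the ATPase that brings the MCM ring to the origin recognition complex, stood at 3.88, 3.86 and 4.31 FPKM in SLCDS replicates 1 to 3 and at 1.5, 1.48 and 1.62 in control replicates 1 to 3. Every SLCDS library lay well above every control, and the ratio of the means, 2.62, was the highest of the 8 genes. CDC6 rose by 0.98 on the log2(FPKM + 1) scale (SE 0.08; limma, adjusted p = 0.000733). CDT1, which escorts the MCM ring to the origin, was at 3.52, 4.31 and 3.8 FPKM in SLCDS and at 1.75, 1.71 and 1.84 FPKM in control. Its ranges did not overlap either, and it rose by 0.82 (SE 0.09; limma, adjusted p = 0.00216). GMNN, the inhibitor of CDT1, was at 5.15, 5.52 and 5.33 FPKM in SLCDS and at 5.03, 4.6 and 5.33 FPKM in control, with overlapping ranges (log2 fold change 0.08; limma, adjusted p = 0.653). CDC6 and CDT1 passed the threshold in each of the 17 alternative settings in which they were fitted.

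Of the 6 subunits of the MCM2-7 ring, MCM2 and MCM4 passed the test and the other 4 did not. MCM4 was at 10.9, 10.4 and 9.84 FPKM in SLCDS and at 7.77, 7.48 and 7.52 FPKM in control, without overlap (log2 fold change 0.40, SE 0.07; limma, adjusted p = 0.0196). MCM2 was at 5.28, 5.14 and 5.92 FPKM in SLCDS and at 4.18, 3.3 and 3.87 FPKM in control, again without overlap (log2 fold change 0.43, SE 0.10; limma, adjusted p = 0.0473). Both calls were lost when most single libraries were left out: without any single SLCDS library or without control replicate 1 or 2, the adjusted p ranged from 0.0602 to 0.126 for MCM4 and from 0.0659 to 0.207 for MCM2. Without control replicate 3 it was 0.000988 for MCM4 and 0.00534 for MCM2. With the replicate number as a block it was 0.0687 for MCM4 and 0.0803 for MCM2.

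MCM6 went the other way, with 6.08, 6.21 and 6.13 FPKM in SLCDS just below the 7.39, 6.32 and 7.26 FPKM of control, and did not pass the test (log2 fold change -0.16; limma, adjusted p = 0.358). MCM7, the most abundant subunit, was at 52.0 to 52.6 FPKM in SLCDS and 46.7 to 56.0 FPKM in control, MCM3 at 18.7 to 20.2 and 17.2 to 19.6 FPKM, and MCM5 at 3.34 to 3.88 and 2.67 to 3.26 FPKM. None of these passed the test over all libraries, and MCM3 and MCM7 passed without control replicate 3 at log2 fold changes of 0.17 and 0.15. The summed level of the 6 subunits was 97.5 ± 0.927 FPKM (SD, n = 3) in SLCDS and 89.4 ± 7.07 FPKM in control, close to the 97.4 FPKM of control replicate 3 alone. MCM8, a related helicase that acts outside licensing, was at 4.0 to 4.35 FPKM in SLCDS and 2.9 to 3.82 FPKM in control (log2 fold change 0.20; limma, adjusted p = 0.351).

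MCM10, which helps to activate the loaded helicase, had too low a level to pass the filter, at 1.08, 1.0 and 0.662 FPKM in SLCDS and 0.268, 0.363 and 0.374 FPKM in control. It rested on an estimated 20 to 83 fragments per library. The ranges did not overlap, and the ratio of means was 2.73. In the fit without a filter it was called higher (log2 fold change 0.51, SE 0.09; limma, adjusted p = 0.0306), where 3.71% of 16832 genes were called higher and 7 of the 47 genes were called, MCM2 (adjusted p = 0.0745) and FEN1 (0.0527) no longer among them.

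The 6 subunits of the origin recognition complex, the platform for MCM loading, gave no call. ORC6 was at 13.2, 11.6 and 12.0 FPKM in SLCDS and at 9.78, 8.54 and 10.1 FPKM in control. All SLCDS libraries lay above all controls, and the adjusted p was 0.0776, or 0.00358 when control replicate 3 was left out (limma, log2 fold changes 0.34 and 0.38). ORC3 was at 10.3, 10.4 and 11.6 FPKM in SLCDS and at 10.8, 10.0 and 10.6 FPKM in control, with overlapping ranges (log2 fold change 0.03, SE 0.08; limma, adjusted p = 0.863). ORC2, ORC4 and ORC5 each had a log2 fold change of -0.11. ORC1, a subunit known to be degraded and remade each cell cycle, was low, at 1.14 to 1.28 FPKM in SLCDS and 0.649 to 0.909 FPKM in control (log2 fold change 0.31; limma, adjusted p = 0.0873). The complex summed to 42.4 ± 0.402 FPKM in SLCDS and 40.6 ± 0.829 FPKM in control.

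CDC45 and the 4 GINS subunits, which turn the MCM ring into the active helicase, gave no call over all libraries. All but GINS3 were among the less abundant genes of the set. CDC45 was at 1.03, 1.15 and 1.5 FPKM in SLCDS and at 0.305, 0.866 and 0.464 FPKM in control, and the spread among controls was wide (log2 fold change 0.54, SE 0.15; limma, adjusted p = 0.0903). GINS4 was at 2.22, 2.64 and 2.33 FPKM in SLCDS and at 2.01, 1.27 and 1.36 FPKM in control (log2 fold change 0.43, SE 0.12; limma, adjusted p = 0.104). GINS1 was at 1.52 to 1.82 FPKM in SLCDS and 1.18 to 1.29 FPKM in control. For all 3 the groups did not overlap, and all 3 passed without control replicate 3, at adjusted p of 0.03, 0.0381 and 0.033 (limma). GINS3 was at 4.05, 3.86 and 3.54 FPKM in SLCDS and at 3.68, 3.13 and 4.45 FPKM in control, with overlapping ranges (log2 fold change 0.03, SE 0.11; limma, adjusted p = 0.929). GINS2 overlapped as well, at 0.814 to 1.2 and 0.887 to 1.12 FPKM.

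PCNA, the sliding clamp that ties polymerases to DNA, did not pass the test over all libraries and passed it without control replicate 3. Its level was 26.6, 23.9 and 24.3 FPKM in SLCDS and 18.6, 19.0 and 26.0 FPKM in control. Control replicates 1 and 2 lay below every SLCDS library, while control replicate 3 lay among them. The log2 fold change was 0.24 (SE 0.13; limma, adjusted p = 0.407) with all libraries and 0.39 (SE 0.05; limma, adjusted p = 0.000585) without control replicate 3. RFC1, the large subunit of the clamp loader, was at 26.4, 25.1 and 26.1 FPKM in SLCDS and at 25.9, 26.5 and 21.5 FPKM in control, with overlapping ranges (log2 fold change 0.07, SE 0.09; limma, adjusted p = 0.746). RFC3 was at 1.38 to 1.68 FPKM in SLCDS and 0.957 to 1.07 in control, without overlap (log2 fold change 0.33; limma, adjusted p = 0.059, and 0.0162 without control replicate 3). RFC5 was at 9.68 to 10.3 and 8.71 to 9.11 FPKM, also without overlap (log2 fold change 0.15; limma, adjusted p = 0.29). RFC2 and RFC4, other loader subunits, had log2 fold changes of -0.01 and -0.03, which turned to 0.14 and 0.07 without control replicate 3.

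None of the 8 tested polymerase and primase genes passed the test over all libraries. POLD2, an accessory subunit of polymerase delta and the most abundant gene of this group, was at 49.6, 46.0 and 50.4 FPKM in SLCDS and at 47.8, 46.8 and 66.4 FPKM in control (log2 fold change -0.12, SE 0.14; limma, adjusted p = 0.715). Its groups overlapped and the highest value was that of control replicate 3. POLD1, the catalytic subunit of the same polymerase, was at 10.3, 10.1 and 10.2 FPKM in SLCDS and at 10.1, 10.3 and 11.6 FPKM in control (log2 fold change -0.06, SE 0.08; limma, adjusted p = 0.769). POLD3 was at 4.76 to 4.88 FPKM in SLCDS and 3.74 to 4.7 FPKM in control. POLE, the catalytic subunit of polymerase epsilon, and POLA1, that of polymerase alpha, had log2 fold changes of 0.08 and 0.06. POLA2, the accessory subunit of polymerase alpha, was at 2.42 to 3.17 and 1.93 to 2.44 FPKM, and of its 17 alternative settings it passed in 1, without control replicate 3 (log2 fold change 0.32; limma, adjusted p = 0.0353). Of the primase genes, PRIM1 was at 2.62 to 3.76 and 1.95 to 3.49 FPKM and PRIM2 at 1.38 to 1.6 and 1.38 to 1.55 FPKM. POLE2 was under the filter, at 0.702 to 1.08 and 0.504 to 0.947 FPKM. The 9 genes of this role summed to 78.2 ± 2.29 FPKM with SLCDS and to 81.5 ± 10.2 FPKM without it (SD, n = 3).

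Among the 5 nucleotide synthesis genes 3 rose, with the largest changes of the set on the log2(FPKM + 1) scale. By ratio of means, though, MCM10 (2.73) and CDC6 (2.62) lay above RRM2 (2.6), TK1 (2.29) and TYMS (2.2), and CDC45 (2.25) lay above TYMS. RRM2, the cell cycle regulated small subunit of ribonucleotide reductase, which makes deoxynucleotides from ribonucleotides, was at 9.97, 9.65 and 11.0 FPKM in SLCDS and at 4.58, 3.84 and 3.37 FPKM in control. Every SLCDS library was above every control, and the mean went from 3.93 ± 0.611 to 10.2 ± 0.71 FPKM (SD, n = 3), a log2 fold change of 1.19 (SE 0.11; limma, adjusted p = 0.00128). RRM1, the large subunit of the same enzyme, was at 12.0, 11.7 and 12.3 FPKM in SLCDS and at 11.5, 11.3 and 11.7 FPKM in control, a log2 fold change of 0.06 (limma, adjusted p = 0.689).

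TYMS, thymidylate synthase, which makes dTMP from dUMP, was at 22.1, 19.7 and 19.4 FPKM in SLCDS and at 8.89, 8.54 and 10.4 FPKM in control. The ranges lay far apart, and the log2 fold change was 1.06 (SE 0.10; limma, adjusted p = 0.00125). TK1, the cytosolic thymidine kinase that makes dTMP by salvage, was at 8.09, 7.05 and 8.73 FPKM in SLCDS and at 3.7, 2.91 and 3.82 FPKM in control, also far apart, with a log2 fold change of 1.00 (SE 0.11; limma, adjusted p = 0.00314). DUT, which supplies dUMP and clears dUTP, was at 22.9, 21.7 and 20.7 FPKM in SLCDS and at 20.7, 22.5 and 28.9 FPKM in control, with overlapping ranges (log2 fold change -0.12; limma, adjusted p = 0.673). RRM2, TYMS and TK1 passed the threshold in each of the 18 alternative settings, with adjusted p up to 0.0144, 0.0138 and 0.0301.

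Of the Okazaki fragment genes, FEN1, the nuclease that trims the RNA-primed flap, was at 11.9, 10.7 and 11.7 FPKM in SLCDS and at 7.49, 6.8 and 9.01 FPKM in control. The groups did not overlap, and FEN1 rose by 0.51 on the log2 scale (SE 0.11; limma, adjusted p = 0.036). That call was lost without any single SLCDS library or without control replicate 1 or 2 (adjusted p 0.101 to 0.18) and held without control replicate 3 (adjusted p = 0.000114). LIG1, the ligase that seals the remaining nick, was at 6.16, 6.92 and 5.5 FPKM in SLCDS and at 5.62, 5.73 and 5.57 FPKM in control, with overlapping ranges (log2 fold change 0.11, SE 0.09; limma, adjusted p = 0.592). CHAF1A, the large subunit of the histone chaperone CAF-1, was at 7.03, 7.05 and 6.62 FPKM in SLCDS and at 4.98, 4.65 and 5.91 FPKM in control, without overlap (log2 fold change 0.36, SE 0.09; limma, adjusted p = 0.0801, or 0.000741 without control replicate 3). SLBP, which binds the stem-loop of histone mRNAs, was at 26.7, 23.6 and 23.4 FPKM in SLCDS and at 22.0, 25.0 and 24.2 FPKM in control (log2 fold change 0.05, SE 0.08; limma, adjusted p = 0.828). CHAF1B was under the filter in both groups, at 0.446 to 0.742 and 0.461 to 0.726 FPKM.

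Some of these levels may include reads of other transcripts, since the strand setting of the counting is not given in the sources used here. In GENCODE release 29, 46.6% of the exon bases of TYMS lie opposite exons of ENOSF1 and TYMSOS, and 23.6% of those of MCM2 opposite exons of TPRA1 and AC023593.1. The shares were 23.6% for GINS4, 14.5% for DUT, 10.9% for GINS3 and 10.6% for RFC5, and lower or 0 for the other 41 genes. ENOSF1 was listed at 0.288, 0.272 and 0.332 FPKM in SLCDS and at 0.0955, 0.106 and 0.122 FPKM in control, far below TYMS in every library. TPRA1 was at 6.86 to 8.87 FPKM in SLCDS and 6.77 to 10.2 FPKM in control, with a log2 fold change of -0.03 (limma, adjusted p = 0.955). Pseudogenes that carry the parent's name are annotated for 8 of the 47 genes (PCNA, RFC3, RFC5, POLD2, RRM2, TYMS, FEN1 and DUT), and the values of these 8 are uncertain to the extent that reads were split or shared.

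Partners with related roles were set against each other within each library, as ratios of FPKM, which any scaling of a whole library leaves as they are. The pairs were picked after their values had been seen, so the ratios are a description without a test. RRM2 stood at 0.831, 0.825 and 0.894 of RRM1 in SLCDS and at 0.4, 0.341 and 0.289 of it in control. CDC6 stood at 0.424, 0.408 and 0.475 of ORC2 in SLCDS and at 0.148, 0.138 and 0.175 in control, a fold of 2.84, the widest of the 8 pairs. The ratio of CDT1 to its inhibitor GMNN was 0.684, 0.78 and 0.714 in SLCDS and 0.348, 0.371 and 0.344 in control. In these 3 pairs the ratio in every SLCDS library was above that in every control library, control replicate 3 included.

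TYMS over DUT was 0.938 ± 0.0287 in SLCDS and 0.39 ± 0.0362 in control (SD, n = 3), MCM2 over MCM6 was 0.887 ± 0.0707 and 0.54 ± 0.0229, and MCM4 over MCM7 was 0.198 ± 0.0101 and 0.153 ± 0.0167, all without overlap. FEN1 over LIG1 was 1.55 to 2.12 in SLCDS and 1.19 to 1.62 in control, and PCNA over RFC1 was 0.931 to 1.01 and 0.716 to 1.21. The groups overlapped for both of these pairs, and for PCNA over RFC1 the highest value of all, 1.21, was that of control replicate 3.

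**Figure D4:**
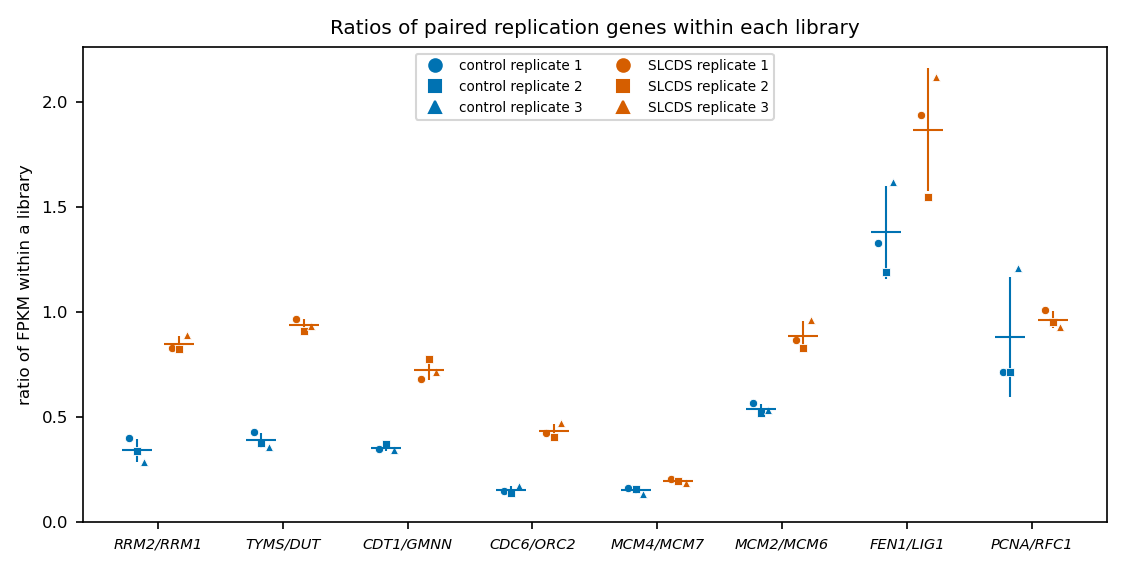
Ratio of FPKM between 8 pairs of partner genes in each library (y axis), with a bar at each group's mean. For RRM2 over RRM1 the SLCDS points lie at 0.825 to 0.894 and the control points at 0.289 to 0.4, while the groups overlap for FEN1 over LIG1 and PCNA over RFC1.

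Genes around this machinery were read from 4 further lists. At an adjusted p under 0.05 over all 6 libraries, the background beside each list is 4.28% higher and 1.82% lower among all tested genes. Of 30 tested genes of origin firing and fork protection, 1 was higher and none lower (limma, median log2 fold change 0.05; unadjusted p under 0.05 and lower: 0). It was TOP2A, the topoisomerase that untangles DNA in replication and mitosis, at 16.3, 16.9 and 14.9 FPKM in SLCDS and 10.2, 8.99 and 6.29 FPKM in control (log2 fold change 0.87, SE 0.16; limma, adjusted p = 0.0207). Its groups did not overlap, and the call held in 13 of 18 alternative settings. The single-stranded DNA binding subunit gene RPA1 was at 41.4 to 41.6 FPKM in SLCDS and 43.4 to 46.5 FPKM in control (log2 fold change -0.12; limma, adjusted p = 0.368), and CDC7, the kinase that fires origins, had a log2 fold change of 0.00. Both were named after their values were seen. Without control replicate 3, 5 genes of the 30 were higher and 1 lower, beside 16% and 11.8% of all tested genes, and the 5 include TICRR, which entered the test only through its SLCDS libraries.

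Of 15 genes of replication-coupled chromatin, 2 were higher and 1 lower (limma, with 2 lower at an unadjusted p under 0.05), with a median of -0.03. ASF1B, a histone chaperone known as a proliferation gene, was at 8.62, 7.69 and 9.07 FPKM in SLCDS and at 3.45, 3.46 and 3.28 FPKM in control, without overlap (log2 fold change 1.10, SE 0.08; limma, adjusted p = 0.000696). UHRF1, which guides maintenance methylation of newly made DNA, was at 2.11, 2.28 and 2.35 FPKM in SLCDS and at 0.994, 0.995 and 0.779 FPKM in control (log2 fold change 0.76, SE 0.08; limma, adjusted p = 0.00251). UHRF1 entered the test only through its SLCDS libraries, so its place in the count of 2 is no support. HAT1, the enzyme that acetylates new histone H4, was lower, at 18.0, 17.2 and 18.6 FPKM in SLCDS and 22.7, 22.4 and 24.0 FPKM in control (log2 fold change -0.35, SE 0.07; limma, adjusted p = 0.0286). Its groups did not overlap, and the call held in 11 of 18 alternative settings. The paralogue ASF1A did not pass the test, with a log2 fold change of -0.03, and was named after its value was seen. So was NASP, at 49.6 to 51.4 FPKM in SLCDS and 58.5 to 61.5 FPKM in control, without overlap. Its log2 fold change was -0.24 (limma, adjusted p = 0.0814, or 0.00104 without control replicate 3). Without control replicate 3, 2 of the 15 were higher and 2 lower, beside 16% and 11.8% of all tested genes, and the 2 higher include UHRF1.

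In the wider nucleotide supply, of 33 genes of folate, pyrimidine and purine synthesis and of salvage, 1 was higher and none lower (limma; unadjusted p under 0.05 and lower: 0), and the median was -0.02. The 1 gene was MTHFD2, a mitochondrial folate enzyme, at 19.0, 17.7 and 18.7 FPKM in SLCDS and 12.3, 12.9 and 14.7 FPKM in control (log2 fold change 0.45, SE 0.08; limma, adjusted p = 0.0235). That call held in 12 of 18 alternative settings and was lost with the replicate block and without any single library other than control replicate 3. RRM2B, the other small subunit of ribonucleotide reductase, had a log2 fold change of 0.02, and the mitochondrial thymidine kinase TK2 one of 0.00. Both of these genes were named after their values were seen. Without control replicate 3, 5 of the 33 were higher and 1 lower, beside 16% and 11.8% of all tested genes.

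Of 26 genes listed as mitotic, 19 passed the test as higher and none as lower (limma, with 0 lower at an unadjusted p under 0.05). The median log2 fold change was 0.55, and the replication genes gave 8 of 44 higher and a median of 0.12. The 19 include HMMR, which entered the test only through its SLCDS libraries. Whether the lists differ was not tested. Those with the largest changes were MKI67 (1.26), UBE2C (1.18), AURKB (1.07) and BIRC5 (1.06). That these genes rose was known from these data when the list was chosen, so it is no independent support. MKI67 was at 6.32, 7.14 and 6.65 FPKM in SLCDS and at 2.86, 2.52 and 1.43 FPKM in control. All SLCDS libraries lay above all controls, and control replicate 3 was the lowest. Without control replicate 3, 23 of the 26 were higher, beside 16% of all tested genes.

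**Figure D5:**
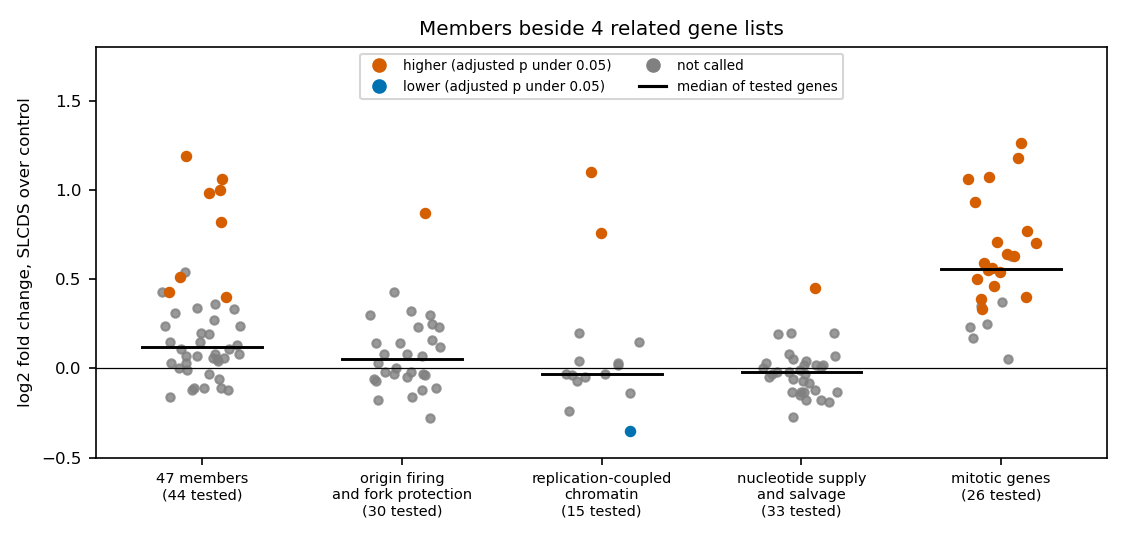
Log2 fold change of SLCDS over control on the log2(FPKM + 1) scale (y axis) for the tested members of the replication set and of 4 further lists, with 1 point per gene, orange for an adjusted p under 0.05, and a bar at each median. Medians are 0.12 for the replication genes, 0.05, -0.03 and -0.02 for the 3 lists around replication, and 0.55 for the mitotic genes.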

How the data were processed

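Per the labels' protocols, TRIzol was used for RNA extraction and a VAHTS Universal V6 kit for the libraries. The authors deposited 1 table of linear FPKM per library. GRCm38 and mm10, both mouse builds, are named in the submitters' processing notes, although the cell line and the symbols are human. Aligner, counter, annotation and strand setting: not given in the sources used here. Depth was estimated from the steps of low values (whole-number ratios within 0.004 for 1491 of 1638 low genes, 91%), and 83 of 193 single-transcript genes agreed within 5%. Groups and replicate numbers came from the titles.

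Genes with FPKM of at least 1 in 3 or more of 6 libraries were kept, and log2(FPKM + 1) was compared with limma 3.58.1 in R 4.3.3 (variance trend on the mean, 2-sided, Benjamini-Hochberg over all 11506 tested genes, threshold 0.05). This scale understates the change of low genes. On simulated data of 11408 genes the fit recovered 42%, 86%, 96% and 98% of changes of 0.5, 1, 1.5 and 2 (log2), and 4.2% of calls were false. The changed genes were drawn only from those above about 5 FPKM, with noise independent between genes and libraries. These rates therefore do not describe the lower genes of the set or a library that stands apart, such as control replicate 3.

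The genes and lists were chosen with earlier results of these data known. All 47 may be named. Full statistics went to up to 4 called genes of each role or list, or to a role's 2 most abundant tested genes. CDC45 and MCM10, both higher in SLCDS without overlap, were given them outside this rule. Alternatives were pseudocounts, filters, scalings, variance priors, removal of the length and GC trend (splines with 4 degrees of freedom), a replicate block and each library left out. Motifs were searched with Python 3.11.15 in RefSeq promoters (GRCh38.p14), for 43 of 47 genes.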

Additional observations from a re-analysis of the deposited data

How the results depend on the processing

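Over 18 alternative settings, RRM2, TYMS, TK1, CDC6 and CDT1 passed the threshold in every setting in which they were fitted, and no replication gene was called lower in any. The count of replication genes called higher was 8, and became 4 with a mean FPKM of at least 5, 14 with the length and GC trend removed, and 5 to 19 with 1 library left out (5 without SLCDS replicate 1, 2 or 3, 19 without control replicate 3). A mean FPKM of at least 5 leaves fewer genes to test, leaving a library out leaves fewer samples, and control replicate 3 stands apart. The cause of these changes in the count of replication genes was not tested for any setting. Their median log2 fold change of 0.12 was 0.15 with a pseudocount of 0.1, 0.14 with 0.5, 0.07 with a mean FPKM of at least 5, 0.17 with each library rescaled to a common sum, 0.15 with upper quartile scaling, 0.1 with quantile normalization and 0.12 to 0.15 with 1 library left out. Over all genes, 492 higher and 209 lower became 196 and 128 with a mean FPKM of at least 5 and 1170 and 789 with the trend removed, 326 were lower with quantile normalization, and leaving out 1 library gave 210 to 1838 higher and 66 to 1353 lower. For origin firing and fork protection the count higher was 2 without a filter, 0 rescaled to a common sum, 3 with the trend removed and 0 to 5 with 1 library left out, and the count lower 0 to 1. For replication-coupled chromatin it was 1 higher with a mean of at least 5, and lower 0 rescaled to a common sum, 2 with the trend removed and 0 to 2 with 1 library left out. For nucleotide supply it was 3 higher with the trend removed, and with 1 library left out 0 to 5 higher and 0 to 1 lower. Mitotic genes called higher were 5 with a mean of at least 5 and 8 to 23 with 1 library left out.

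The deviations of same-numbered libraries from their group means correlated at -0.33, 0.36 and 0.07. SLCDS replicate 3 correlated best with its own number, SLCDS replicate 2 at 0.37 with control replicate 1, and SLCDS replicate 1 at 0.36 with control replicate 3. Because the control mean includes the outlying control replicate 3, these correlations cannot decide whether the numbers pair the samples. With the replicate block 6 replication genes were higher and 0 lower, against 346 and 109 of all genes, the lower call in replication-coupled chromatin became 0 and the higher call in nucleotide supply became 0.

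Signs changed for genes that passed no test over all libraries. With quantile normalization the log2 fold change was -0.11 for GINS2, -0.04 for GINS3, -0.02 for POLA1 and -0.09 for PRIM2. Rescaled to a common sum it was 0.02 for RFC2 and 0.00 for RFC4, with upper quartile scaling 0.02 and 0.00, and with the trend removed 0.05 and 0.03. With 1 library left out it ranged from -0.02 to 0.06 for ORC3, -0.02 to 0.12 for GINS2, -0.07 to 0.13 for GINS3, -0.02 to 0.13 for RFC1, -0.09 to 0.14 for RFC2, -0.09 to 0.07 for RFC4, -0.09 to 0.00 for POLD1, -0.21 to 0.04 for POLD2, 0.00 to 0.13 for POLE, -0.05 to 0.26 for PRIM1, -0.04 to 0.03 for PRIM2, -0.01 to 0.08 for SLBP and -0.22 to 0.01 for DUT. The fold of PCNA over RFC1 ranged from 0.999 to 1.34. The cause of these changes was not tested. Depth limits the genes near an FPKM of 1, among them MCM10, CDC45, GINS2, ORC1 and RFC3.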
